A study of Arabidopsis thaliana with 9 samples.

Results

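The genes described here had lower counts in leaves after heat shock (HS) than in control leaves (CK), and higher counts than in CK after prolonged warming (PW). They were chosen from the read counts of all 9 libraries. Each gene's count was divided by the library total (CPM, scaled to a total of 1000000), averaged over the 3 libraries of a treatment, and increased by 0.5. A member reached 10 counts in 3 or more libraries and had a log2 ratio of HS to CK of -0.7 or below, a log2 ratio of PW to CK of 0.7 or above, every HS library below every CK library, and every PW library above every CK library. These criteria were met by 71 of the 18952 genes with enough counts, among 33602 identifiers in all. The HS criteria alone were met by 3916 genes (20.7%) and the PW criteria alone by 1322 (6.98%), and both by 0.375% of the genes tested. Since the same values chose the members, their levels, folds and calls are given as a description and no test is made of them.

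Wild-type Arabidopsis of the Columbia ecotype was grown under long days, and leaves were taken at 30 days after sowing, when the rosette leaves had expanded. CK plants stayed at 23/18 °C (day/night). PW plants spent the last 7 days, from 23 days after sowing, at 28/23 °C, and HS plants were held at 38 °C for 6 hours of the light period at 30 days after sowing. Each treatment had 3 libraries, described as biological replicates, and the number of plants behind a library and the hour of harvest were not given in the sources used here.

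Plant cells grow by loosening a wall that is kept under tension by the water in the vacuole. Expansins loosen the contacts between cellulose and xyloglucan, xyloglucan endotransglucosylases cut and rejoin xyloglucan chains, and tonoplast aquaporins let water into and out of the vacuole. Brassinosteroid, auxin and the bHLH factors that act with them are known to raise the transcripts of such genes, and moderate warmth is known to promote elongation growth in this species, whereas severe heat halts growth and redirects transcription to chaperones.

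A few members that the following results turn on, an alpha-expansin pair, a xyloglucan endotransglucosylase and the bHLH factor HBI1, have the sequences below in the 250 bases before their annotated start, read from the TAIR10.1 assembly of RefSeq. They are shown because bHLH factors such as HBI1 are known to bind the E-box, CANNTG, whose matches are in capitals. The EXPA8 window is chr2:16950706-16950955 on the minus strand, that of EXPA1 is chr1:26141476-26141725 on the plus strand, that of XTH6 is chr5:26298478-26298727 on the plus strand, and that of HBI1 is chr2:7954786-7955035 on the minus strand, all written 5′ to 3′ along the gene.
EXPA8: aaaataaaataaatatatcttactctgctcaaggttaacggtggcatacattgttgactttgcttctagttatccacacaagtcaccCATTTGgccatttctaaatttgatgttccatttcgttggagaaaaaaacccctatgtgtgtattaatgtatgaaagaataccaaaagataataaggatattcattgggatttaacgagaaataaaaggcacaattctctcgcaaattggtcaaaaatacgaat
EXPA1: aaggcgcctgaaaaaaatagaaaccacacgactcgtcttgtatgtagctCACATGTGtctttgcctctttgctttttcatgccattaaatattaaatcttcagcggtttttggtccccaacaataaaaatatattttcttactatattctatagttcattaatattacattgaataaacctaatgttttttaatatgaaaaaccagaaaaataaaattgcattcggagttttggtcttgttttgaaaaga
XTH6: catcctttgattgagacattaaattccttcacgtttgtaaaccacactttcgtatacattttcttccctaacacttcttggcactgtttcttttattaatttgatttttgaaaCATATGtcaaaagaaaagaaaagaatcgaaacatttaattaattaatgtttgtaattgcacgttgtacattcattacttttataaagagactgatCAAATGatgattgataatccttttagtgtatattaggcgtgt
HBI1: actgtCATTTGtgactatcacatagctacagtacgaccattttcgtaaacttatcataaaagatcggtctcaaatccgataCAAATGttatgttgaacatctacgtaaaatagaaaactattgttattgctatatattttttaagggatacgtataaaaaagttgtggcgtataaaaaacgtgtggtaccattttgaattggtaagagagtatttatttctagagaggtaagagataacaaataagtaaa
The EXPA8 window held 1 match and each of the others 2, which overlap in EXPA1. Matches of this short motif are common: in windows from 250 bases before to 50 bases after the start, 45 of 70 members with a window had an E-box (64.3%), against 62.5% of tested genes and 62.8% of all windows.

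Libraries held from 11660970 to 17768334 counts. The correlation of log2 CPM over genes, a description since genes are no replicates, lay between 0.984 and 0.99 within CK, between 0.945 and 0.971 within PW and at 0.991 for HS replicates 1 and 2, but at 0.925 for HS replicate 3 with each of them. HS replicate 3 therefore stood apart, and a drop in HS that it moved by over 1.5 times is given with and without it wherever its fold is printed. The 5 mesophyll markers had summed levels from 31202 to 35667 CPM in CK, from 61611 to 63780 CPM in PW and from 33066 to 36203 CPM in HS, and the 5 root markers summed to at most 0.728 CPM in any library. STM, a homeobox gene of the shoot meristem, was at 16.0, 7.05 and 6.83 CPM in CK replicates 1 to 3, at 5.51, 0 and 2.59 CPM in PW, and at 0, 0.079 and 21.2 CPM in HS. PDF1, 1 of 4 epidermis and cuticle markers, was at 220.4, 113.3 and 204.5 CPM in CK, at 89.2, 0.704 and 58.1 CPM in PW, and at 0.0728, 0.237 and 167.5 CPM in HS. STM and PDF1 were thus near 0 in PW replicate 2 and in HS replicates 1 and 2, and within or above the CK range in HS replicate 3. The other epidermis and cuticle markers did not follow PDF1. ATML1, a homeobox factor of the epidermis, was between 69.7 and 80.0 CPM in CK, at 77.8 CPM in PW replicate 2 and at 43.3 and 38.1 CPM in HS replicates 1 and 2. CER1, of wax synthesis, was between 194.3 and 259.3 CPM in CK, at 488.4 CPM in PW replicate 2 and at 941.9 and 900.5 CPM in HS replicates 1 and 2. LTP1, a lipid transfer protein, was between 1450 and 1653 CPM in CK, at 643.5 CPM in PW replicate 2 and at 4349 and 3817 CPM in HS replicates 1 and 2. Summed, the 4 epidermis markers were from 1935 to 2197 CPM in CK, from 1210 to 1540 CPM in PW and from 3660 to 5335 CPM in HS, and the 5 flower and meristem markers, with CLV3 at 0 in 8 of 9 libraries, were from 8.12 to 32.4 CPM in CK, from 1.88 to 21.4 CPM in PW and from 1.31 to 23.1 CPM in HS. Clock genes differed from CK in the same direction in both treatments: by edgeR's test, 9 of 9 morning genes were called higher in HS and in PW (8 in HS without HS replicate 3, list medians 3.04 and 3.72 on the log2 scale), and 6 of 12 evening genes were called lower in each (medians -0.86 and -1.32). The part of leaf sampling or harvest time in the members' values was not tested.

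**Figure D1:**
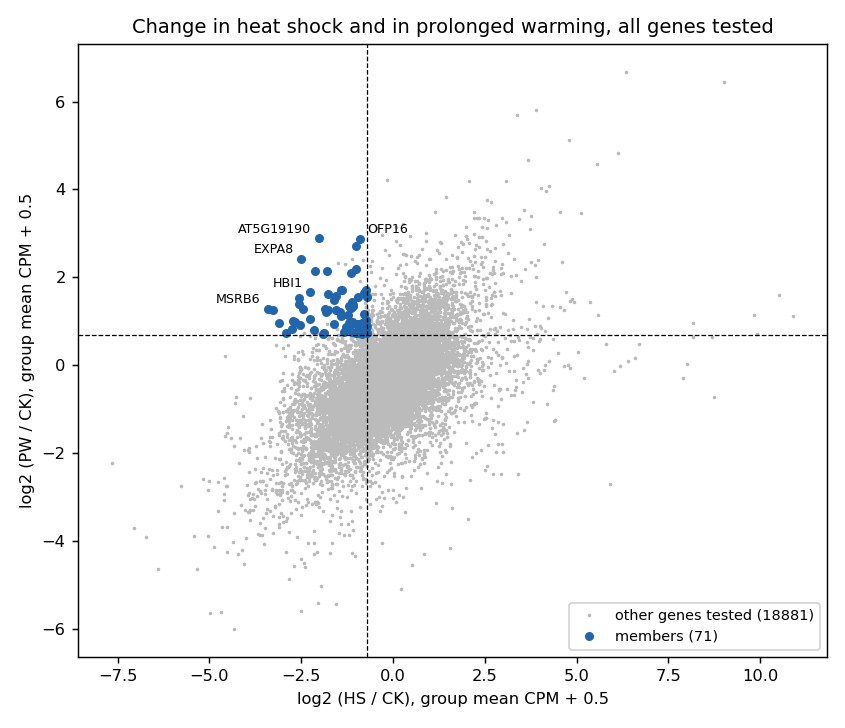
Each point is a tested gene, placed by its log2 ratio of HS to CK on the horizontal axis and of PW to CK on the vertical axis, from group mean CPM with 0.5 added, and dashed lines mark -0.7 and 0.7. The 71 members (blue) lie in the upper left corner, with EXPA8 at -2.50 and 2.43 and MSRB6 at -3.42 on the horizontal axis.

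Over the members the median log2 ratio of HS to CK was -1.22 (range -3.42 to -0.70), that of PW to CK was 1.15 (range 0.72 to 2.89) and that of PW to HS was 2.55 (range 1.45 to 4.92). Over all tested genes these medians were -0.14, -0.42 and -0.24 on the same scale of library totals, so the median gene was itself lower in PW. The TMM scaling of edgeR moved the median of all genes up by 0.17 in HS vs CK, by 0.41 in PW vs CK and by 0.24 in PW vs HS. Without HS replicate 3 the members' median for HS to CK was -1.45. In bulk leaf RNA, fewer cells of a kind and less transcript per cell cannot be told apart.

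Every HS library lay below every CK library for 32.7% of tested genes, and every PW library above every CK library for 11.8%. Among the members, edgeR's quasi-likelihood test, with calls at an adjusted p below 0.05 and 2-fold, called 41 lower in HS vs CK, where 10.5% of all tested genes were called lower. It called 64 higher in PW vs CK, where the share over all tested genes was 8.82%, and all 71 higher in PW vs HS, where that share was 6.92%. In either direction 21.8% of tested genes were called in HS vs CK (11.3% higher), 16.4% in PW vs CK (7.6% lower) and 14.5% in PW vs HS (7.57% lower), which is the background for the lists of genes that follow. Both HS and PW calls were made for 38 members and neither for 4, which were ESE3, AT2G10940, iqd21 and DELTA-TIP. Leaving out CK replicate 3 lowered the count of 41 to 26 and leaving out HS replicate 2 lowered it to 27, whereas 47 were called without HS replicate 3. These calls use the values that chose the members and nothing is read from them.

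Picking genes by the test in place of the ratios gave 49 genes called lower in HS and higher in PW (0.259% of those tested), of which 38 were members, that is 77.6% of the 49 and 53.5% of the 71. Among the other 11 were BEE2, a bHLH factor related to HBI1, and the nitrate reductase gene NIA1, both named here after their values were seen: their PW libraries overlapped those of CK. BEE2 was not called in PW when CK replicate 1, CK replicate 3 or PW replicate 2 was left out. NIA1 was not called in HS when CK replicate 1 or 3, PW replicate 3 or any 1 of the HS libraries was left out, nor in PW when CK replicate 3 was. With library size alone BEE2 was not called in PW. The number of genes by this test was 111 without HS replicate 3, 16 without CK replicate 3, 28 when CK replicate 2 was left out and 29 when PW replicate 2 was. The number by the criteria themselves was 127 without HS replicate 3, and 68 of the 71 members were among them. Another 31 genes passed both ratio thresholds but had libraries that overlapped between treatments.

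**Figure D2:**
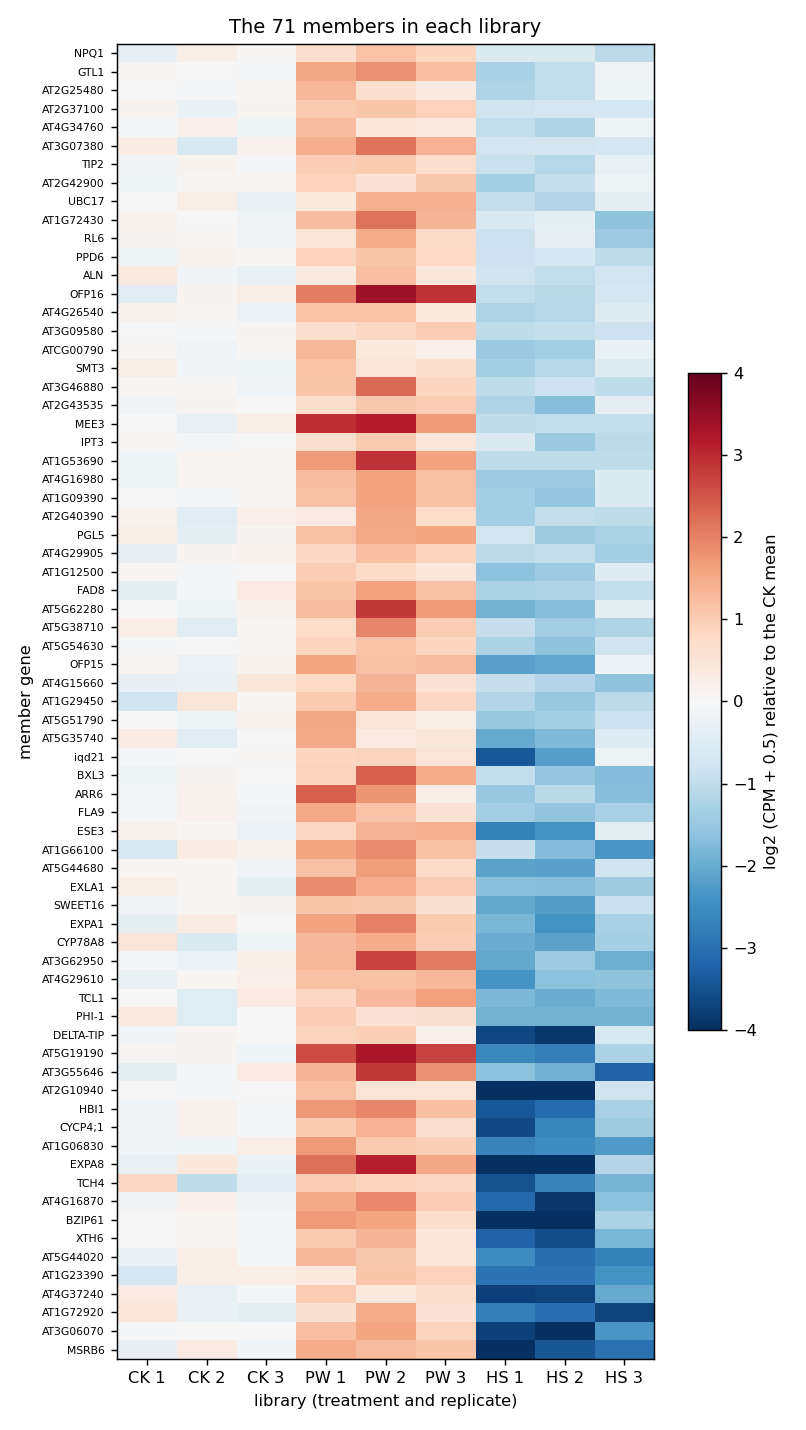
Rows are the 71 members in the order of their log2 ratio of HS to CK, columns are the 9 libraries, and color gives log2 (CPM + 0.5) relative to the CK mean, red for higher and blue for lower, with the scale ending at -4 and 4. PW columns are red and HS columns blue in every row because the criteria required it; what they did not set is the pale HS 3 column, paler than HS 1 and HS 2 in most rows, and the strong PW 2 column.

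Of the lists, that of wall-loosening proteins held the most members. Of 36 tested expansins and xyloglucan endotransglucosylases, 5 were members: the alpha-expansins EXPA8 and EXPA1, the expansin-like gene EXLA1, and XTH6 and TCH4, which encode xyloglucan endotransglucosylases. EXPA8 (AT2G40610) was at 51.8, 86.7 and 53.4 CPM in CK replicates 1 to 3, at 298.8, 552.4 and 186.4 CPM in PW and at 1.97, 2.69 and 28.1 CPM in HS. Its mean was 5.41-fold higher in PW and 5.85-fold lower in HS than in CK, or 27.5-fold lower without HS replicate 3. The criteria set the order of treatments. The HS values of EXPA8 differed among themselves by a larger factor than its CK and PW means.

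EXPA1 (AT1G69530) had 72.3, 115 and 93.0 CPM in CK, 289, 382.6 and 192.3 CPM in PW, and 26.0, 17.5 and 37.5 CPM in HS, a mean 3.08-fold higher in PW and 3.46-fold lower in HS than in CK. Its HS libraries lay closer together than those of EXPA8. EXLA1 (AT3G45970) was at 8.39, 7.55 and 5.30 CPM in CK, 27.6, 20.4 and 14.4 CPM in PW, and 1.89, 1.82 and 2.32 CPM in HS, with HS replicate 3 level with the other two. Its exons overlap a gene on the opposite strand, and since the use of strand in counting is not given, some of these counts could belong to that gene.

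XTH6 (AT5G65730) stood at 57.0, 59.5 and 53.6 CPM in CK, 116.7, 145.3 and 76.5 CPM in PW, and 5.53, 4.35 and 15.4 CPM in HS. XTH6 was 6.71-fold lower in HS than in CK (11.5-fold without HS replicate 3) and 1.99-fold higher in PW. TCH4 (AT5G57560), known as a gene induced by touch, gave 38.6, 10.3 and 16.0 CPM in CK, 44.1, 40.1 and 39.1 CPM in PW, and 1.46, 3.004 and 5.57 CPM in HS. Here CK replicate 1 nearly reached the PW libraries, so the PW excess of TCH4 rested mainly on CK replicates 2 and 3, and with the replicate number as a block it was not called.

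The family as a whole did not share this pattern. By edgeR's test 11 of the 36 genes were called lower and 2 higher in HS vs CK (20 lower and 2 higher without HS replicate 3), and 7 were called higher and 3 lower in PW vs CK, with list medians of -0.98 and -0.02 on the log2 scale of edgeR against 0.03 and -0.04 over all tested genes. The 10 calls in PW fell to 6 without CK replicate 1 and to 5 without CK replicate 3 or PW replicate 2, and to 5 with library size alone. The non-members with the most counts were XTH4, XTH9, XTH7 and EXPA6. XTH4 was called lower in HS (edgeR log2 fold change -1.85) and stayed at 0.03 in PW, and XTH9 was called lower in HS (-4.16) and had -1.85 in PW, which was called lower only with the replicate number as a block. XTH7 was called higher in PW (1.15), though not with library size alone nor without any 1 of CK replicates 1 and 3 and PW replicates 1 and 2, and had 0.55 in HS, and EXPA6 had -1.32 in HS (called with DESeq2, with the block and without HS replicate 3) and -0.36 in PW and was called in neither.

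**Figure D3:**
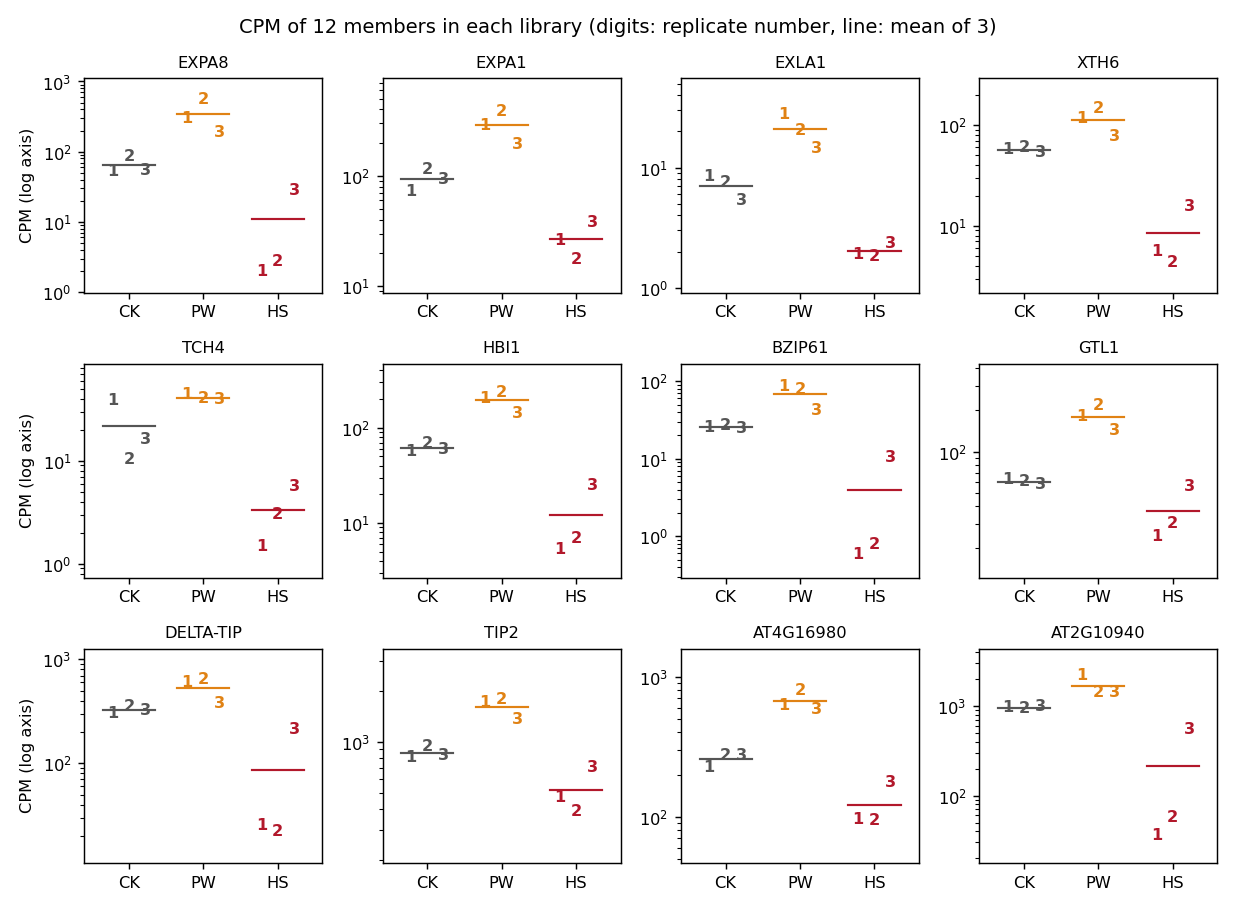
CPM of 12 members on log axes, by treatment, with digits for the replicate number and a line at the mean of 3. In EXPA8, BZIP61, DELTA-TIP and AT2G10940, HS replicate 3 lies far above HS replicates 1 and 2, whereas in EXPA1 and EXLA1 the 3 HS libraries lie together.

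Other wall proteins were members as well. FLA9, a fasciclin-like arabinogalactan protein, was at 31.6, 37.5 and 29.9 CPM in CK, 95.9, 73.3 and 49.5 CPM in PW, and 12.2, 10.7 and 13.1 CPM in HS, with HS replicate 3 level with the others. The arabinogalactan-protein gene AT4G16980 was at 223.8, 274.8 and 274.1 CPM in CK, 624, 794.3 and 585.4 CPM in PW, and 94.7, 93.3 and 176 CPM in HS. FLA9 was called lower in HS, whereas AT4G16980 was not called there (edgeR log2 fold change -0.95). A transcript on the opposite strand overlaps AT4G16980, with the same uncertainty as for EXLA1. Of 41 tested arabinogalactan and fasciclin-like genes, 12 were called lower and 3 higher in HS (21 and 3 without HS replicate 3), and 6 higher and 5 lower in PW. FLA8, which missed membership by its PW ratio alone (0.686 against the threshold of 0.7), was called higher in PW with a log2 fold change of 1.08 (not without PW replicate 1 or with library size alone) and had -0.99 in HS, just short of the threshold: FLA8 was called lower there under 8 of 15 alternatives, among them DESeq2, library size alone and leaving out CK replicate 1 or HS replicate 3, while AGP15 was called lower in HS (-1.83). BXL3, a beta-xylosidase that trims xylan and arabinan side chains, gave few counts, with means of 2.33 ± 0.282 CPM in CK, 8.81 ± 4.94 CPM in PW and 0.588 ± 0.317 CPM in HS (SD, n = 3, as for the means that follow).

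Both member aquaporins belong to the tonoplast group. Per length, TIP2 (AT3G26520) had the highest CK level of the 70 members with an exon length, at 664 reads per kilobase of exon, scaled as CPM (RPKM), and DELTA-TIP (AT3G16240) was at 273 RPKM. TIP2 was at 800.9, 938.7 and 830.7 CPM in CK, 1704, 1771 and 1359 CPM in PW, and 466.2, 384.2 and 702.4 CPM in HS, so that its treatments differed by 1.88-fold and 1.66-fold from CK. Its libraries did not overlap between treatments, as the criteria required. By edgeR's test TIP2 was called higher in PW but was not called in HS (log2 fold change -0.58). DELTA-TIP was at 299.8, 353.3 and 321.8 CPM in CK, 598.3, 634.1 and 373.2 CPM in PW, and 25.3, 22.1 and 211.7 CPM in HS. In HS replicates 1 and 2 it was 13.7-fold below CK, while HS replicate 3 was close to CK and PW replicate 3 barely above it, and no call was made for it in either comparison. Opposite-strand genes overlap its exons.

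The 4 other aquaporins with the most counts had log2 fold changes from 0.13 to 2.05 in HS and from 0.58 to 2.1 in PW. Of 21 tested, 5 were called higher and 1 lower in HS (5 and 5 without HS replicate 3), and 6 higher and 2 lower in PW. The 8 calls in PW fell to 3, 5 and 2 without CK replicates 1, 2 and 3, to 4 without PW replicate 2, and to 5 with library size alone. The plasma membrane aquaporin PIP2A was called higher in both, at the top of both ranges. GAMMA-TIP, another tonoplast aquaporin, had 0.73 and 0.83 and was called in neither, except in PW without PW replicate 3.

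Several members encode transcription factors. HBI1 (AT2G18300), a bHLH factor that promotes cell elongation downstream of brassinosteroid in this species, was at 55.8, 68.3 and 59.0 CPM in CK, 205.4, 236.3 and 141.7 CPM in PW, and 5.32, 6.80 and 24.7 CPM in HS. Its mean was 3.19-fold higher in PW and 4.97-fold lower in HS (10.1-fold without HS replicate 3). The treatments did not overlap for HBI1, as the criteria required. HS replicate 3 lay below the lowest CK library by more than the CK libraries differed from each other.

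Of 20 tested genes of brassinosteroid synthesis and signalling and related growth regulators, HBI1 was the only member, 3 were called lower and 1 higher in HS, and 5 were called higher and 0 lower in PW. The 4 calls in HS fell to 2 without CK replicate 2 or CK replicate 3, and the 5 in PW to 2 with library size alone, without TMM. The genes of this list with the most counts, CPD of hormone synthesis, the receptor BRI1, the kinase BIN2 and the factor BES1, were called in neither comparison, with log2 fold changes from -0.27 to 0.40 in HS and from 0.24 to 0.48 in PW. BEE2 had -1.31 in HS and 1.11 in PW and was called in both.

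The bZIP factor gene BZIP61 (AT3G58120) stood at 25.3, 26.9 and 24.8 CPM in CK, 84.6, 77.9 and 42.0 CPM in PW, and 0.583, 0.791 and 10.4 CPM in HS. HS replicates 1 and 2 held 8 and 10 counts against 121 in replicate 3, so the drop in HS was 6.55-fold with it and 37.4-fold without it. BZIP61 was the only one of 44 tested bZIP genes among the members. Of them, 6 were called higher and 1 lower in PW, and 4 higher and 1 lower in HS. The 7 calls in PW fell to 3 without CK replicate 1 and to 2 without CK replicate 3 or PW replicate 2, and the 5 in HS fell to 3 without CK replicate 1, CK replicate 2 or HS replicate 2 and to 2 without CK replicate 3. The 4 other bZIP genes with the most counts, AT3G60320, BZIP25, BZO2H1 and BZIP60, were called in neither comparison, though with library size alone AT3G60320 (-0.84) was called in HS and BZIP60 (-0.88) in PW, the latter also without PW replicate 1. BZIP61 itself was called lower in HS and not called in PW (edgeR log2 fold change 1.81). BZIP34, named after its values were seen, was called higher in PW (2.77, a call lost on leaving out CK replicate 1 or 3 or PW replicate 2) and had -1.57 in HS (called without HS replicate 3). An opposite-strand gene overlaps BZIP61.

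GTL1 (AT1G33240), a trihelix factor that restrains growth of trichome cells and acts on stomatal density, was at 62.5, 61.0 and 58.1 CPM in CK, 179.6, 216.9 and 141.4 CPM in PW, and 24.3, 30.2 and 55.9 CPM in HS. Its PW libraries were far above CK, while HS replicate 3 lay just under the lowest CK library, and its log2 ratio of -0.71 put it just inside the HS threshold. GTL1 was not called in HS (edgeR log2 fold change -0.58). TCL1, a small MYB protein that represses trichome formation, had at most 1 count in an HS library and was at least 6.31-fold lower in HS than in CK (at a floor of 3 counts per library), with 1.52, 0.944 and 2.03 CPM in CK and 3.04, 4.38 and 5.68 CPM in PW. Both act against trichome growth in this species, but of 15 tested trichome patterning genes 3 were called lower and 2 higher in HS, and 3 higher and 1 lower in PW. Without HS replicate 3 these calls became 8 lower and 2 higher in HS, and 4 higher and 5 lower in PW, and the 4 calls in PW were 7 with library size alone or with DESeq2. TCL2, a close relative of TCL1, was called lower in HS (-1.36) and had 0.32 in PW. GIS was instead called higher in HS (2.91) and had 1.23 in PW, called with DESeq2 and some other alternatives. TTG1 (0.0 in HS and 0.66 in PW) was called in neither. GL2 (-0.48 and -1.59) was called in neither, except in HS without HS replicate 3, and in PW with DESeq2, library size alone and some other alternatives.

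Further regulators had small counts. MEE3, a MYB-like factor, was at 0.788, 0.566 and 1.09 CPM in CK, 9.62, 11.2 and 3.76 CPM in PW, and at most 0.172 CPM in HS. Its 10.1-fold excess in PW was the highest ratio of means of the 71 without the 0.5 added. With 0.5 added its log2 ratio was 2.72, below those of AT5G19190 (2.89) and OFP16 (2.88). In HS MEE3 was at least 3.43-fold lower than in CK. The bHLH gene AT5G51790 had means of 1.36, 2.96 and 0.299 CPM in CK, PW and HS, with an opposite-strand gene on its exons, and was not called in PW with the replicate number as a block.

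Several ovate family proteins are known to repress transcription and cell elongation in this species, and 2 of 13 tested were members. OFP16 was at 5.80, 8.75 and 9.44 CPM in CK, 34.5, 89.5 and 62.0 CPM in PW, and 3.79, 3.40 and 4.89 CPM in HS. The PW excess of OFP16 was 7.75-fold, whereas its HS libraries lay only a little under the lowest CK library. OFP15 had means of 6.27 ± 0.866, 16.8 ± 2.74 and 2.45 ± 2.41 CPM in CK, PW and HS, with HS replicate 3 at 5.23 CPM, just under CK. These were the 2 ovate genes called higher in PW (1 without CK replicate 2). In HS 2 of the 13 were called lower and 1 higher, 3 calls that became 1 without CK replicate 2, CK replicate 3, HS replicate 1 or HS replicate 2, 5 without PW replicate 1 or with DESeq2, and 8 without HS replicate 3. Neither OFP15 nor OFP16 was among these calls in HS (edgeR log2 fold changes -1.26 and -0.82), whereas OFP13 was called lower there (-1.73).

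Hormone genes among the members came from cytokinin and auxin. ARR6, a type-A response regulator whose transcripts rise with cytokinin, was at 6.02, 7.17 and 5.95 CPM in CK, 35.5, 23.1 and 7.77 CPM in PW, and 1.89, 2.77 and 1.63 CPM in HS. PW replicate 3 exceeded CK only slightly, so the 3.46-fold mean excess came from PW replicates 1 and 2. IPT3, which makes the first cytokinin precursor, had means of 7.16 ± 0.270 CPM in CK, 12.2 ± 2.74 CPM in PW and 3.32 ± 1.19 CPM in HS. ARR6 was called lower in HS, whereas IPT3 was not called there (edgeR log2 fold change -0.91). Of 26 tested genes of the cytokinin list, 8 were called lower and 1 higher in HS, and 6 higher and 0 lower in PW. That list was matched by name and could hold genes of other function. The response regulator gene ARR4 was called lower in HS (-1.71) and had 0.58 in PW, and the receptor gene HK3 had 0.50 and 0.13 and was called in neither. LOG2 (0.91 and 0.48) and HK1 (-0.06 and 0.68) were called in neither, except LOG2 in HS without HS replicate 3. An opposite-strand gene overlaps ARR6.

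Of the 97 tested auxin response genes, 3 were members, all of the small auxin-up RNA (SAUR) family, whose proteins promote acid growth of the wall. AT1G72430 was at 25.1, 22.5 and 20.5 CPM in CK, 53.9, 104.4 and 58.4 CPM in PW, and 14.7, 17.2 and 7.12 CPM in HS. Unlike most members, AT1G72430 was lowest in HS replicate 3. AT1G29450 had means of 7.01, 16.2 and 2.72 CPM in CK, PW and HS, and AT4G34760 had 21.6, 36.3 and 12.9 CPM. AT1G29450 was called lower in HS, whereas AT1G72430 and AT4G34760 were not called there (edgeR log2 fold changes -0.58 and -0.6). AT1G29450 lies among close copies, and reads could be split between them. An opposite-strand gene also overlaps the exons of AT1G29450. In the list as a whole, 23 genes were called higher and 7 lower in PW, and 6 higher and 11 lower in HS (7 and 35 without HS replicate 3). The 30 calls in PW fell to 18 without CK replicate 3, and the 17 in HS fell to 11 without CK replicate 3 and to 10 without HS replicate 1. The list was matched by symbol and held 2 ADP-ribosylation factors, of which 0 were called in either comparison.

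**Figure D4:**
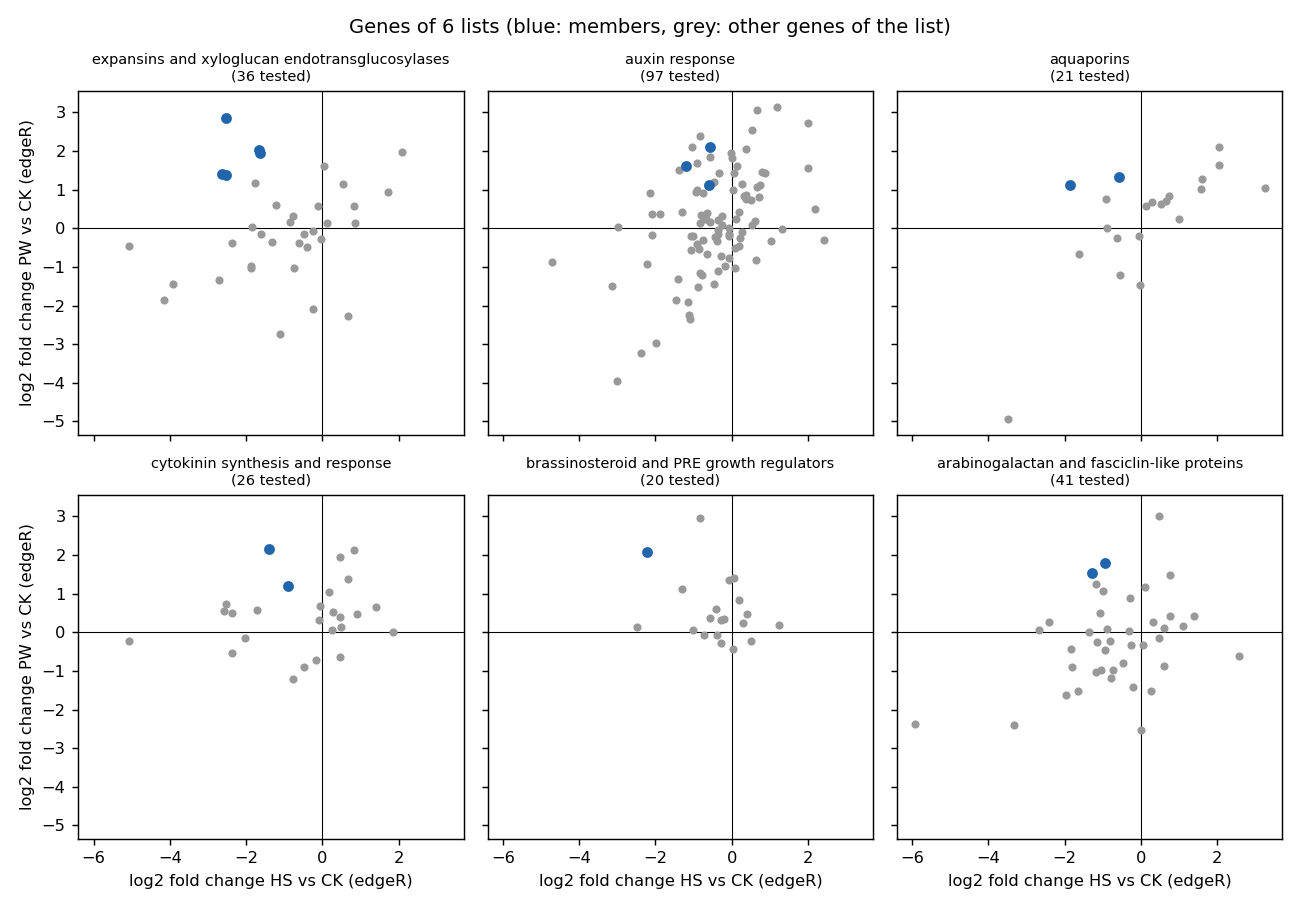
edgeR log2 fold changes of the genes of 6 lists, HS vs CK on the horizontal axis and PW vs CK on the vertical axis, with members in blue and the other genes of each list in grey. Members lie at upper left in each panel because the criteria put them there, and other genes of the lists, such as PIP2A at 2.05 and 2.1, lie elsewhere.

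Some members act in chloroplasts or membranes. NPQ1, the violaxanthin de-epoxidase that makes zeaxanthin for the safe loss of excess light energy, was at 96.4, 141.6 and 123.1 CPM in CK, 190.6, 264.5 and 216.4 CPM in PW, and 82.8, 80.6 and 57.9 CPM in HS. Its treatments did not overlap, as the criteria required, but its HS difference was the smallest of the members (1.63-fold). Of the 9 tested genes of the xanthophyll cycle and quenching, 4 were called higher in HS and 5 in PW and 0 lower, and the 5 in PW became 3 with library size alone. ABA1, the zeaxanthin epoxidase of the reverse reaction, was called higher in both (2.11 and 2.68). FAD8, a plastid omega-3 desaturase whose activity is known to fall at high temperature in this species, had 29.9, 36.3 and 48.7 CPM in CK, 82.5, 117.9 and 86.2 CPM in PW, and 15.8, 16.4 and 19.0 CPM in HS. FAD8 was called higher in PW (1.75) but was not called in HS (-0.99). Among the 9 tested desaturases, 5 were called higher and 0 lower in PW (3 calls with library size alone). In HS 1 was called higher and 0 lower (3 calls with library size alone). FAD7, the related plastid desaturase, and FAD6 were called higher in PW (1.37 and 1.34, neither with library size alone) and had 0.38 and 0.45 in HS. FAD2 (0.06 in HS and 0.91 in PW) and SSI2 (0.73 and 0.81) were called in neither. The thylakoid lumen protein gene PPD6, named after its values were seen, had means of 46.1, 89.7 and 25.5 CPM in CK, PW and HS. Opposite-strand genes overlap NPQ1, FAD8 and PPD6.

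ATCG00790 is a chloroplast identifier that the annotation used here does not pair with a name. It was at 394.8, 346.2 and 393.5 CPM in CK, 949.1, 494.6 and 437.5 CPM in PW, and 135.3, 142.6 and 315.4 CPM in HS. It was the only member among 82 tested chloroplast identifiers, and 0 of 38 tested mitochondrial ones were members.

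Redox proteins were present in small number. The glutaredoxin gene AT1G06830 was at 2.48, 2.33 and 3.34 CPM in CK and 10.03, 6.10 and 5.68 CPM in PW, with 0, 1 and 2 counts in the HS libraries, at least 11.4-fold lower than in CK. Of 21 tested glutaredoxins, 4 were called higher in PW, and 4 lower and 3 higher in HS, and the 4 in PW fell to 2 without PW replicate 2 and to 2 with library size alone. AT1G64500 was called higher in both (log2 fold changes of 4.04 in HS and 3.64 in PW). The thioredoxin superfamily gene AT3G62950 had means of 2.80 ± 0.558, 14.0 ± 6.73 and 0.449 ± 0.229 CPM in CK, PW and HS. MSRB6, a methionine sulfoxide reductase that repairs oxidised methionine, was at 24.0, 38.2 and 28.0 CPM in CK, 85.1, 73.3 and 64.9 CPM in PW, and 1.38, 2.37 and 3.34 CPM in HS. MSRB6 was 12.7-fold lower in HS than in CK, and all of its HS libraries were low. Its log2 ratio of HS to CK was the lowest of the members with all libraries (-3.42), but without HS replicate 3 it was -3.69, and that of EXPA8 (-4.51), BZIP61 (-4.46), AT2G10940 (-4.36), AT3G06070 (-4.10), DELTA-TIP (-3.75) and AT4G37240 (-3.73) was lower.

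AT5G19190, annotated as an uncharacterized protein, was at 17.7, 18.6 and 15.03 CPM in CK, 106.5, 169.1 and 114.6 CPM in PW, and 2.48, 2.13 and 6.86 CPM in HS. AT5G19190 was 7.60-fold higher in PW and 4.47-fold lower in HS than in CK (7.42-fold without HS replicate 3). With all libraries its log2 ratio of PW to HS was 4.92. AT3G55646, annotated only as TPRXL, had 3.77, 4.85 and 6.32 CPM in CK, 13.4, 38.7 and 19.1 CPM in PW, and 1.24, 0.949 and 0.0858 CPM in HS. HS replicate 3, with 1 count, was the lowest for AT3G55646. AT3G06070, uncharacterized, had means of 19.0 ± 0.624, 46.0 ± 11.5 and 1.54 ± 1.60 CPM in CK, PW and HS, 12.3-fold lower in HS than in CK (30.0-fold without HS replicate 3).

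AT2G10940, annotated as a lipid-transfer-like protein, was at 518 RPKM in CK, second to TIP2 among members. It was at 955.9, 931.7 and 974.6 CPM in CK, 2173, 1395 and 1398 CPM in PW, and 35.5, 56.4 and 548.1 CPM in HS. CK libraries differed little, but HS replicate 3 was 9.63 times the higher of the other HS libraries, the widest such gap of the members, and the drop was 4.47-fold with it and 20.8-fold without it. The thionin gene AT1G66100, a family of small antimicrobial proteins, had means of 34.8 ± 11.2, 105 ± 26.2 and 11.6 ± 5.85 CPM in CK, PW and HS, with HS replicate 3 the lowest. An annotated gene on the same strand shares exon sequence with it. AT4G16870, which the annotation calls a pseudogene, had 41.8 ± 5.52, 121 ± 39.0 and 6.62 ± 5.72 CPM. SWEET16, a tonoplast sugar carrier, had 1.87 ± 0.212, 4.08 ± 0.855 and 0.282 ± 0.426 CPM, and the receptor-like kinase gene AT4G26540 had 11.6 ± 1.65, 22.5 ± 6.31 and 5.84 ± 1.78 CPM. SWEET16 held 1, 0 and 9 counts in HS and was not called in PW. Of 11 tested SWEET genes, 3 were called higher and 2 lower in HS, and 3 higher and 2 lower in PW. The 5 in HS fell to 3 without CK replicate 2, CK replicate 3 or HS replicate 1. AT4G26540 was not called in HS, and an opposite-strand gene overlaps it. Of 174 tested receptor-like kinases, 16 were called higher and 27 lower in HS (16 and 55 without HS replicate 3). In PW 9 were called higher and 23 lower.

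The remaining members had the same order of treatments by construction, and apart from ALN, which lay beside a threshold, they are named here after their values were seen. Among enzymes, ALN, the allantoinase of purine breakdown, PGL5, a 6-phosphogluconolactonase, SMT3, a sterol methyltransferase, and CYP78A8, a cytochrome P450, had CK means of 10.3, 13.4, 11.5 and 2.05 CPM, PW means of 17.2, 37.3, 20.6 and 5.64 CPM, and HS means of 5.47, 5.95, 5.75 and 0.246 CPM. Among genes with more counts, the acid phosphatase family gene AT5G44020 had 110 ± 20.8, 223 ± 62.9 and 16.2 ± 2.86 CPM in CK, PW and HS, and the F-box gene AT1G23390 had 114 ± 36.7, 203 ± 50.4 and 16.6 ± 3.98 CPM. These genes combined a small excess in PW, 2.03-fold and 1.79-fold, with a deep drop in HS, 6.80-fold and 6.85-fold, in all HS libraries. An annotated gene on the same strand shares exon sequence with AT5G44020, so its counts are uncertain. CYCP4;1, a P-type cyclin, had 8.34 ± 0.970, 17.9 ± 4.67 and 1.33 ± 1.35 CPM. AT1G72920, with a TIR domain as found in immune receptors, had means of 14.0, 27.7 and 1.18 CPM in CK, PW and HS. AT4G29905, uncharacterized, had 86.3 ± 15.9, 171 ± 24.4 and 39.8 ± 5.53 CPM. The other members not described above were ESE3, AT5G44680, AT4G29610, AT5G38710, AT5G62280, AT1G09390, AT2G40390, AT5G54630, AT4G15660, AT2G43535, AT5G35740, AT3G09580, RL6, UBC17, iqd21, AT2G42900, AT1G12500, AT4G37240, AT2G25480 and AT2G37100. Counts were at or under 3 in every HS library for 7 members (TCL1, AT1G06830, AT1G53690, MEE3, AT3G46880, PHI-1 and AT3G07380), with lower bounds of the drop from 1.94-fold to 11.4-fold. In all, 45 members had at least 10 counts in every library, 26 had fewer in some HS library, and exons of 15 overlap another annotated gene.

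Genes near 1 threshold could be far past the other. GTL1 had a log2 ratio of 1.559 in PW, and DELTA-TIP and AT5G50740 had -1.905 and -2.524 in HS. Just inside the HS threshold were NPQ1 (-0.703), GTL1 (-0.71) and AT4G34760 (-0.72), and just outside it were AT2G40020 (-0.688), PCB2 (-0.684), which encodes a reductase of chlorophyll synthesis, and AT5G12470 (-0.682). Just inside the PW threshold were DELTA-TIP (0.719), ALN (0.72) and ATCG00790 (0.729), and just outside it were FLA8 (0.686), AT5G50740 (0.68) and AT5G51390 (0.664).

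The members differed between libraries of a treatment in ways the criteria did not set. The median coefficient of variation was 15.8% between CK libraries, 27.1% between PW libraries and 45.7% between HS libraries, against 11.2%, 22.8% and 21.7% over all tested genes. HS replicate 3 was the highest HS library for 50 members (70.4%), against 63.8% of all tested genes and 74.1% of the other genes that met the HS criteria. It was at least 2 times the higher of the other HS libraries for 19 members (26.8%), against 14.3% and 20.9% in these sets. Its shares for the members were therefore not far from those of the other genes lower in HS. The 19 included EXPA8, HBI1, BZIP61, XTH6, DELTA-TIP, AT2G10940 and iqd21, and relative to the CK mean the median member stood at -1.48, -1.55 and -1.03 (log2) in HS replicates 1 to 3.

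Among PW libraries, replicate 2 was the highest for 44 members and replicate 3 the lowest for 42, and the median member stood at 1.18, 1.35 and 0.89 above the CK mean in PW replicates 1 to 3. PW replicate 2 had the highest median of the members and HS replicates 1 and 2 the lowest, and in all 3 libraries STM and PDF1 were near 0 while ATML1, CER1 and LTP1 were not. HS replicate 3 held STM above every CK library and had the members below CK, as the criteria required.

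**Figure D5:**
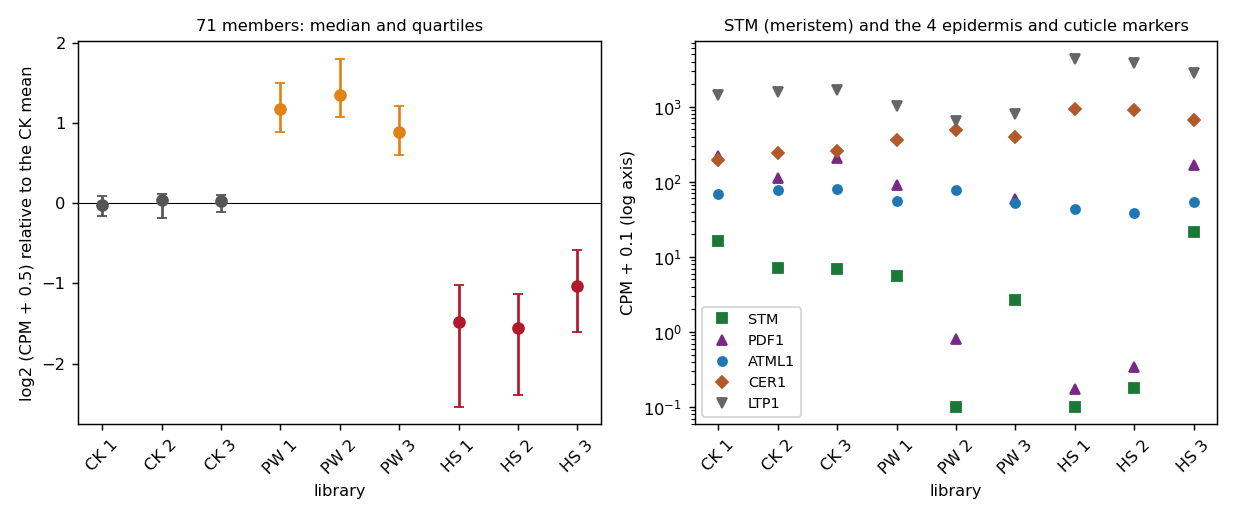
Left, the median over the 71 members of log2 (CPM + 0.5) relative to the CK mean in each library, with bars for the quartiles. Right, CPM with 0.1 added, on a log axis, of STM (meristem) and of the 4 epidermis and cuticle markers: STM and PDF1 are near 0 in PW 2, HS 1 and HS 2, where the members' median is 1.35, -1.48 and -1.55, whereas ATML1, CER1 and LTP1 are not.

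Gene structure was not used by the criteria. Members had a median exon length of 1340 bases against 1801 over tested genes, at most 2 exons in the median against 5, and 20 of them (28.6%) had no transcript model with more than 1 exon, against 14.0%. GC content of their exons was 40.3% against 41.1%. They lay on all 5 chromosomes (17, 13, 14, 11 and 15 genes on chromosomes 1 to 5). No protein-coding member lay within 10 protein-coding genes of another, a check that does not cover the pseudogene AT4G16870 or ATCG00790.

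In the windows from 250 bases before to 50 bases after the start, searched on both strands, the site II element TGGGCC, known from promoters of ribosomal and other growth genes, was present in 2 of 70 members (2.86%) against 19.5% of tested genes and 13.0% of all windows. The TCP site GGNCCC was present in 15.7%, against 10.1% and 8.48%. The G-box CACGTG, which is a form of the E-box, was present in 5.71%, against 8.97% and 6.45%, the heat shock element GAANNTTC in 7 of 70 members, against 11.4% and 11.4%, and the evening element AAATATCT in 7.14%, against 6.04% and 5.06%. The ABRE core ACGTG, found in every G-box, was present in 20.0%, against 27.5% and 24.5%. The other motifs searched, the CCA1 site AAAATCT, I-box GATAAG, telo-box AAACCCTA, W-box TTGAC, DRE core CCGAC and copper core GTAC, were present in 20.0%, 14.3%, 2.86%, 47.1%, 12.9% and 38.6% of members, against 18.8%, 14.9%, 5.61%, 50.2%, 16.5% and 39.5% of tested genes. A match says only that the letters are in the window.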

How the data were processed

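Leaf RNA of 9 libraries, 3 each of CK, PW and HS, was sequenced on an Illumina platform. The deposited values are raw read counts for each gene, which the authors made, per the submitters' processing notes, with CASAVA 1.8, TopHat2 and HTSeq 0.6.1 against TAIR10. Use of strand and the annotation version were not given in the sources used here, so genes that overlap or have close copies are uncertain.

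The members and the gene lists were chosen with earlier results of these data known, and 9 of 35 lists were added after the members were seen. Members were found from CPM by library total. All 9 libraries entered 1 fit of edgeR 4.0.16 in R 4.3.3 with TMM scaling, on genes that reached 10 counts in 3 or more libraries, with Benjamini-Hochberg adjustment over all 18952 and calls at an adjusted p under 0.05 and 2-fold. Names, positions and windows came from the TAIR10.1 annotation, which matched 70 of 71 members. The genes named were the 12 with the largest smaller change of the 2, the 6 with the highest CPM, the 6 with the largest ratio of PW to HS, members of lists, transcription factors, kinases, transporters and receptors with a symbol, and the 3 on either side of each threshold. Other genes of a list were taken from the 4 with the most counts. For several lists only some of these 4, or none, are named, and that choice followed no fixed rule. Genes outside these rules are named as such. Scripts were tested on simulated data. Figures used Python 3.11.15 and matplotlib 3.10.9.

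Same-numbered libraries were checked for pairing: deviations from treatment means correlated at 0.27, 0.32 and 0.15 between PW and CK, each number best with itself, so the block value stands beside PW calls it ended, but at -0.33, 0.22 and -0.09 between HS and CK. Alternatives were DESeq2 1.42.0, other scalings, filters and constants, the replicate number as a block, only the 2 groups compared, and leaving out each library.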

Additional observations from a re-analysis of the deposited data

How the results depend on the processing

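The number of members depended on the scaling, the filter and the thresholds: 107 genes met the criteria with TMM library sizes and 110 with DESeq2 size factors (57 of the 71 in each), 45 with at least 10 counts required in every library, 32 with log2 thresholds of 1 and 115 with 0.5, and from 66 to 127 when a library was left out, the highest without HS replicate 3. With constants of 0.1 and 1 it was 80 and 57, without organelle genes 71. Of the calls among members, 41 in HS vs CK became 22 and 64 in PW vs CK became 42 when every library needed 10 counts, and 71 in PW vs HS became 45, because only 45 members passed that filter; library size without TMM left 34 in PW vs CK. Leaving out a library gave from 26 to 47, from 47 to 71 and from 69 to 71 calls in these comparisons. The 49 genes called in both directions were 29 with library size alone, 31 with the strict filter and from 16 to 111 when a library was left out. No member's fold change reversed under any of these alternatives, which the choice of members largely fixed. The criteria had required every HS library below and every PW library above every CK library, so nothing is read from it.

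With the replicate number as a block, 38 members were called in HS vs CK, 57 in PW vs CK and 71 in PW vs HS, and 36 genes in both directions. The 7 members that lost the PW call were PHI-1, RL6, AT2G40390, AT4G15660, AT5G35740, AT5G51790 and TCH4. Without HS replicate 3 the number of list genes called in HS vs CK was 581 in place of 404.

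Depth limits the 26 members with under 10 counts in an HS library, whose ratios depend on the 0.5 added and whose floors cover counting error only. Having 3 libraries per treatment, with HS replicate 3 apart from the others, leaves the size of the HS differences uncertain. The same CK libraries enter both ratios, so the CK level moves both. The p-values set a difference against the spread between these libraries, which the fit estimates over all 9 libraries together. HS replicate 3 therefore also enters the calls in PW vs CK, 64 members with it and 71 without it.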
